A study of Mus musculus with 12 samples.

Results

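The left ventricle of a mouse sampled 1 day after a sham operation was compared with the 5 control ventricles of the same study that were sampled later. A sham operation exposes the animal to anaesthesia and to the opening of the chest without the damaging step, so a control taken at 1 day carries whatever the surgery itself does to the heart. The study holds 12 arrays of left ventricular RNA from Balb/c mice aged 6 to 8 weeks, and 6 of them are controls. It examined transverse aortic constriction (TAC, a ligature that narrows the aorta and loads the left ventricle with pressure), myocardial infarction (MI, a coronary artery tied and then reopened) and infusion of angiotensin II (Ang II), each with its own controls.

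The array compared here is the sham of TAC at 1 day. The 5 later controls are the TAC shams at 1 week and 1 month, the MI shams at 1 week and 1 month, and the 1 week control of the Ang II series, which received saline from an osmotic minipump instead of Ang II at 2 mg per kg per day. MI shams had the pericardium opened and the coronary artery left untied. No deletion, transgene or drug is named for any control. Each group is 1 array, so no value of the 1 day sham has a replicate, and whether an array holds 1 ventricle or several is not stated. A sham was assigned to the TAC or MI series by its title alone. The study's text lists a 1 day harvest for MI and the labels give it to TAC, and the labels were followed.

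Every array was scaled to a common trimmed mean, low signals were raised to a floor of 4.54, and signals were compared on the log2 scale over 11623 genes that lay above a signal of 18.1 on average. A gene was counted when the 1 day sham lay outside the range of the 5 later controls and at least 2-fold from their mean. By that rule 56 genes (0.482%) were higher and 282 genes (2.43%) were lower in the 1 day sham, 338 genes (2.91%) in all. Values in the text are signals in scaled array units, log2 differences are the 1 day sham minus the mean of the later controls, and the standard error (SE) comes from the spread of the 5 later controls. Signals of different probe sets are not compared with each other.

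After surgery or inflammation, cytokines acting through STAT3 and glucocorticoids raise acute phase proteins such as lipocalin 2 and the metallothioneins, small cysteine-rich proteins that bind zinc and copper. Interferon-gamma raises a different set, which includes the immunity-related GTPases (Iigp1, Igtp, Irgm1, Irgm2), the guanylate-binding proteins (Gbp), the immunoproteasome subunits and the MHC molecules that present peptides to T cells. These families are described in most detail below, and they hold a small part of the counted genes on either side.

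The promoters of 6 genes show the sequence context of both sides, each as the bases just upstream of the annotated start, 5′ to 3′ on the gene's strand, from RefSeq on GRCm38.p6. The metallothionein genes were chosen because they passed the strictest test among the higher genes. Capitals mark metal response element matches, searched on both strands as TGCACNC and TGCGCNC. The Mt1 stretch is chr8:94178839-94179088 on the plus strand and the Mt2 stretch is chr8:94172368-94172617 on the plus strand.
Mt1: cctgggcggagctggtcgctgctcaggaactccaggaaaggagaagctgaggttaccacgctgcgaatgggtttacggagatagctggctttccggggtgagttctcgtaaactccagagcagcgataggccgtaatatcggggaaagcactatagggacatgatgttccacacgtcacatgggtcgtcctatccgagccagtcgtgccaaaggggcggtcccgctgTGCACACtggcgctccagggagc
Mt2: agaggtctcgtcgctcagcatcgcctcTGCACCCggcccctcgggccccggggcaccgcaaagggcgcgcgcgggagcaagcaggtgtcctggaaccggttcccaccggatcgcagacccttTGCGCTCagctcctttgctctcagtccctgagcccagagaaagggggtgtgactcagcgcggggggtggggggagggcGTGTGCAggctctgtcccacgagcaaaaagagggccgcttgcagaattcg
The Mt2 stretch held 3 matches and the Mt1 stretch 1. TGCACNC was present in 10.5% of the 9382 promoters of tested genes and in 5 of the 42 promoters of genes counted higher (11.9%), a share close to that of all tested genes.

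The interferon-induced genes were chosen because they were the list with the most members counted lower. Capitals mark 2 motifs searched on both strands, the interferon-stimulated response element, searched as GAAA, any 2 bases and GAAA again, and the gamma-activated site written as TTCNNNGAA, neither of which overlapped the other in the stretches shown. Igtp is shown from chr11:58199436-58199555 and Irgm2 from chr11:58214857-58214976, and Gbp2 from chr3:142620543-142620662 and Gbp3 from chr3:142559924-142560043, all on the plus strand.
Igtp: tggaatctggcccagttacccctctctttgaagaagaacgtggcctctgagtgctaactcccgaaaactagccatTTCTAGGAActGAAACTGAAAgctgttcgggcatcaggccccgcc
Irgm2: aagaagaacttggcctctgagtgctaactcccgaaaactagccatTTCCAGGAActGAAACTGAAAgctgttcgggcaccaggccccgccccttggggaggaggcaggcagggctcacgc
Gbp2: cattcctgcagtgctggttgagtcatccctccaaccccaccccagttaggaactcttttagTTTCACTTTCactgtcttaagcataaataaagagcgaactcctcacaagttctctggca
Gbp3: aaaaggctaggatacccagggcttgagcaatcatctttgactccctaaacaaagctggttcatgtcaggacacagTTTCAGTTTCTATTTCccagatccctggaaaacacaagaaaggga
Igtp and Irgm2 carry the same arrangement, a gamma-activated site match followed directly by a response element match, which begins 45 bases before the Igtp start and 75 bases before the Irgm2 start. In Gbp3, 2 response element matches overlap.
Of the 14 interferon-induced genes counted lower, 11 were in the promoter table, and 7 of those (63.6%) held the response element match within 250 bases upstream, against 2.54% of the promoters of all tested genes and 7.27% of the 220 promoters of genes counted lower. TTCNNNGAA was held by 3 of the 11 (27.3%), against 5.66% of all tested. Iigp1, Usp18 and Zbp1 had no entry in the table. The 11 come from a list of interferon-induced genes, and the share among list members not counted lower was not computed. The contrast with all tested genes therefore does not tie the match to the lower readings. A match is a description of the sequence and was not tested as a binding site.

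With the processing used here, the 1 day sham held more counted genes than any other control did when each was singled out against the other 5, with 338 genes against 168 to 285. That rank did not hold after quantile normalization or with no filter on dim genes, where another control held at least as many. The 1 day sham lay outside the range of the rest at 5245 genes (45.1%), against 3295 to 3947 for the others. Its excess was on the lower side, 282 genes against 124 to 143, while its 56 higher genes fell within the 40 to 159 of the other controls. With 6 arrays an exact permutation test cannot go below p = 0.1667, the value of the one-sided test for the total and for the lower genes. The median log2 difference over all tested genes was 0.01.

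Most of the lower genes were dim. In 236 of the 282 the brighter side was at or under a signal of 100, and 34 of them were at the floor in the 1 day sham. Among the 7250 genes with a brighter side above 100, a limit chosen after the values were seen, 16 were higher (0.221%) and 46 were lower (0.634%). The higher share of all counted genes was 56 of 338 by the scaling used here, 92 of 307 with the signals as deposited and 105 of 294 after quantile normalization, so the balance between the sides moved with the scaling. At the edge of the rule, Ptprj read 20.1 against 27.5 to 62.2 later and was just counted as lower. Tshz3 read 101 against 41.7 to 60.2 and Hirip3 read 42.4 against 70.4 to 96.9, and both fell just short of the 2-fold limit.

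**Figure D1:**
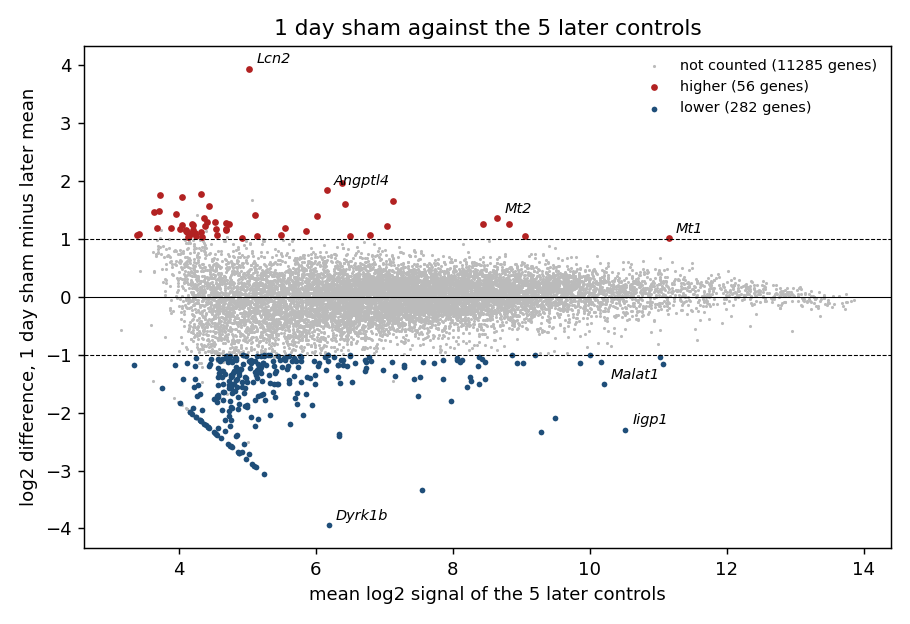
Log2 difference of the 1 day sham from the mean of the 5 later controls (y axis) against that mean log2 signal (x axis) for each of the 11623 genes tested, with the 2-fold limits dashed. Lcn2 stands highest at 3.94 and Dyrk1b lowest at -3.95, and the oblique edge of points at lower left is made of genes at the floor in the 1 day sham.

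A limma fit, which takes the spread from the 5 later controls and adjusts over all genes tested, called 3 genes (0.0258%) at an adjusted p under 0.05. Mt1 and Mt2 rose and Dyrk1b, a protein kinase of muscle, fell. At an unadjusted p under 0.05 there were 1394 genes (12%), 660 higher (5.68%) and 734 lower (6.32%), against 289 to 534 when another control was singled out, and none of those others gave a gene at the adjusted threshold. The count of 3 depended on the controls used. It was 62 without the Ang II series control (12 higher and 50 lower), 6 without the TAC sham at 1 month, and 0 against the 3 controls at 1 week alone, where 909 genes had an unadjusted p under 0.05.

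Several array quality values of the 1 day sham lay outside those of the later controls. The 5′ to 3′ signal ratio of the dap spike-in was 0.574 in the 1 day sham and 0.550 in the Ang II series control, and 0.241 to 0.290 in the other 4 later controls. With TAC at 1 day at 0.611, the 2 arrays of day 1 had the highest dap ratios of the 12. For the thr spike-in the Ang II series arrays were highest, at 0.805 in the control and 0.758 under Ang II. There the 1 day sham, at 0.607, lay inside the later control range, and TAC at 1 day read 0.652. The 2 arrays of day 1 also had the most tested genes at the floor, 42 in the 1 day sham and 57 in TAC at 1 day, against 4 to 26 on the 10 later arrays. The 3′ to 5′ ratio of beta-actin was 1.30 in the 1 day sham and 1.25 to 1.28 in the later controls, and that of Gapdh was 0.854 and 0.790 to 0.839. The trimmed mean signal before scaling was 118 in the 1 day sham and 105 to 111 in the later controls. Across genes, which are not independent, the 1 day sham correlated most with the Ang II series control (r = 0.972, against 0.961 to 0.966 with the other 4). The part of these differences in the results below was not tested, and values against the Ang II series control are given where they differ.

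Markers of the labelled tissue were present on every control array. The 15 measured cardiomyocyte markers held no counted gene, with a median log2 difference of -0.10, and 8 of the 15 lay below the later range (53.3%, against 21.4% of all genes). Myh6, the main adult myosin, read 13690 in the 1 day sham and 13560 to 15040 later. Their summed signal was 125400 in the 1 day sham against 131200 to 138600 later.

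The metallothioneins Mt1 and Mt2 were higher in the 1 day sham and passed limma's adjusted threshold in the fit used here. Mt1 read 4599 in the 1 day sham. In the later controls it read 2139 and 2249 in the TAC shams at 1 week and 1 month, 2379 and 2312 in the MI shams, and 2313 in the Ang II series control. The later controls lay within a narrow band and the 1 day sham at 2.02 times their mean, a log2 difference of 1.01 (SE 0.10, adjusted p = 0.00407 by limma). Mt1 sat near the 2-fold limit, and its count as higher held in 11 of 15 alternatives. It was not counted with the mean of all probe sets of a gene, and a second, dim probe set read 11.3 in the 1 day sham within a later range of 6.63 to 26.3.

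Mt2 read 1030 in the 1 day sham. The later values were 422 and 429 in the TAC shams, 352 and 365 in the MI shams, and 450.1 in the Ang II series control. The groups did not overlap, and the log2 difference was 1.36 (SE 0.16, 2.56-fold, adjusted p = 0.0231 by limma). Both calls depended on the fit. Without an intensity trend in limma the adjusted p was 0.119 for Mt1 and 0.119 for Mt2, and with the mean of all probe sets of a gene it was 0.769 and 0.0597. Over 15 alternatives to that fit Mt1 passed in 12 and Mt2 in 8. Of the 16 measured genes of the metal and iron list, Mt1 and Mt2 were counted higher (12.5%, against 0.482% of all genes). Steap4, a metalloreductase, was counted lower (6.25%, against 2.43%), and the list median was 0.18. A second Steap4 probe set above the filter read 89.8 within 76.9 to 153.7 (log2 difference -0.39). Slc30a1, the zinc exporter, read 410 against 276 to 333 and was not counted (log2 difference 0.42). A dimmer Slc30a1 probe set read 40.7 against 47.9 to 67.0, so its probe sets disagreed. The zinc importer Slc39a14, the metal sensor Mtf1, the ferritin subunit Fth1, the transferrin receptor Tfrc and haem oxygenase Hmox1 were not counted either, with log2 differences of 0.26, 0.56, -0.06, 0.22 and 0.21. Dimmer Slc39a14 probe sets above the filter gave -0.74 and -0.53.

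Acute phase genes were the second group on the higher side. Of 10 measured members 3 were counted higher (30%, against 0.482% of all genes) and none lower, with a median log2 difference of 0.44. Lcn2, which encodes the iron-siderophore binder lipocalin 2, read 500.4 in the 1 day sham. It read 46.2 and 172 in the TAC shams at 1 week and 1 month, 20.8 and 24.7 in the MI shams, and 9.18 in the Ang II series control. The later controls themselves spanned a wide range, all below the 1 day sham, and the log2 difference of 3.94 (SE 1.09, 15.3-fold) was the largest of the higher genes, with adjusted p = 0.250 by limma.

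Serpina3n, a secreted protease inhibitor, read 262 in the 1 day sham. The later controls read 117 and 117 in the TAC shams, 118 and 76.0 in the MI shams and 37.9 in the Ang II series control. The lowest later value was again that of the Ang II series, and the log2 difference was 1.61 (SE 0.51, adjusted p = 0.279). Lrg1, a leucine-rich glycoprotein of plasma, read 1102 against 595 and 734 in the TAC shams, 452 and 445 in the MI shams and 488 in the Ang II series control. Its log2 difference of 1.05 (SE 0.24, adjusted p = 0.186) was close to the limit and was counted in 10 of 15 alternatives.

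The other acute phase genes did not follow as a block. Saa3, a serum amyloid, read 41.1 within a later range of 6.94 to 41.5. Haptoglobin Hp read 17.3 within 6.15 to 33.3, and Lbp, Ptx3, Cp and Hamp also stayed inside the later range or within 2-fold of it. Complement factor Cfb was at the floor in the 1 day sham and also in the Ang II series control, and read 6.26 to 35.5 in the other 4. In the IL-6 and STAT3 list, 2 of 22 measured genes were counted lower (9.09%, against 2.43% of all genes) and none higher. They were Batf and Clcf1, both dim, the latter at the floor in the 1 day sham and at 20.4 to 38.7 later. A second Clcf1 probe set of like brightness read 19.6 within 15.3 to 27.9 (log2 difference -0.16), so its probe sets disagreed. Socs3, the feedback inhibitor of STAT3, read 84.4 within 64.7 to 114.

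Cdkn1a, the cell cycle inhibitor p21, read 438 in the 1 day sham. It read 239 and 264 in the TAC shams, 122 and 122 in the MI shams and 58.0 in the Ang II series control. Both TAC shams lay above the MI and Ang II series controls, and the log2 difference of 1.64 (SE 0.61, adjusted p = 0.329) was smaller against the TAC shams alone, at 0.81, where the gene was not counted. A second probe set of Cdkn1a read 103 against 4.54 to 27.1. Among 24 measured growth arrest and p53 genes Cdkn1a was the one counted (4.17%, against 0.482% of all genes counted higher).

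Angptl4, a secreted inhibitor of lipoprotein lipase, read 257 in the 1 day sham. The later controls read 82.6 and 66.5 in the TAC shams, 64.6 and 44.6 in the MI shams and 121 in the Ang II series control. All were below the 1 day sham, and the log2 difference was 1.84 (SE 0.41, adjusted p = 0.175). Acot1, a cytosolic acyl-CoA thioesterase, read 325 against 81.8 and 56.6 in the TAC shams, 68.5 and 90.1 in the MI shams and 140 in the Ang II series control. Its log2 difference was 1.97 (SE 0.38, adjusted p = 0.132), and both genes are known targets of PPAR-alpha, the fatty acid sensing nuclear receptor.

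The list of fatty acid oxidation genes and PPAR-alpha targets held these 2 counted genes among 39 measured (5.13%, against 0.482% of all genes), and none lower. The 1 day sham lay above the later range at 23 of the 39 (59%, against 23.7% of all genes), with a median log2 difference of 0.23 against 0.01. The lipid droplet protein Plin5 read 1787 against 967 to 1209, malonyl-CoA decarboxylase Mlycd 561 against 293 to 435, the carnitine carrier Slc25a20 2218 against 1340 to 1727, and Cpt2 2760 against 1838 to 2267. Pdk4, the kinase that holds back pyruvate oxidation, read 3338, inside the later range of 2459 to 3356. The respiratory chain and TCA cycle list held no counted gene among 49, with a median of 0.04.

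Of 34 measured glucocorticoid-responsive genes, Lcn2, Angptl4 and Cdkn1a were counted higher (8.82%, against 0.482% of all genes) and none lower, and the list median was -0.02. Its best known transcripts split. Fkbp5, the FK506-binding co-chaperone, read 272 against 124 to 199.8, while Tsc22d3 read 545 against 599 to 982 and Sgk1 read 658 against 804 to 973. None of the last 3 was 2-fold from the later mean.

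Other bright genes on the higher side belonged to no list. Cyp26b1, which degrades retinoic acid, read 170 against 49.3 to 77.9, a log2 difference of 1.39 (SE 0.28, adjusted p = 0.137). Csdc2, an RNA-binding cold shock domain protein, read 833 against 286 to 446, and Chrac1, a histone-fold protein, read 1088 against 369 to 611. A second probe set of Chrac1 differed by only 0.26 on the log2 scale, so its probe sets disagreed.

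Apod, a lipocalin that carries lipids, read 306 against 83.0 to 210, and Sema4d, Smim5 and Lingo3 had log2 differences of 1.05, 1.06 and 1.19. Timp1, the inhibitor of matrix metalloproteinases, read 127 against 110 in the TAC sham at 1 week and 31.9 to 78.6 in the other 4, a log2 difference of 1.13 (SE 0.55). Tnc, the matricellular protein tenascin C, read 36.9 against 9.39 to 30.4. Among 47 measured matrix genes, whose median was 0.01, those 2 were counted higher (4.26%, against 0.482% of all genes). Col12a1, a dim fibril-associated collagen, was counted lower (2.13%, against 2.43%). A second Col12a1 probe set above the filter read 13.7 within 7.39 to 19.8 (log2 difference 0.08), so its probe sets disagreed.

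Dim genes made up the rest. Klhdc8b, Bpifb1, 1810064F22Rik, St6galnac2, Syt8, Nmral1, Atp8a2, Kif26a, Gm20346, 4921531C22Rik, Rasl10a and Rps6kc1 had log2 differences between 1.27 and 1.78, signals of 34.4 to 92.4 in the 1 day sham, and adjusted p-values of 0.353 or more by limma. For Klhdc8b the Ang II series control, at 61.1, was close to the 68.9 of the 1 day sham. The mean signal used to filter dim genes included the 1 day sham itself. A high reading there can therefore lift a dim gene over the filter and also make it counted higher. Bpifb1, which lay close to the filter, read 45.0 there against 4.54 to 28.2 later. Which of these dim genes would pass a filter without that array was not computed.

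**Figure D2:**
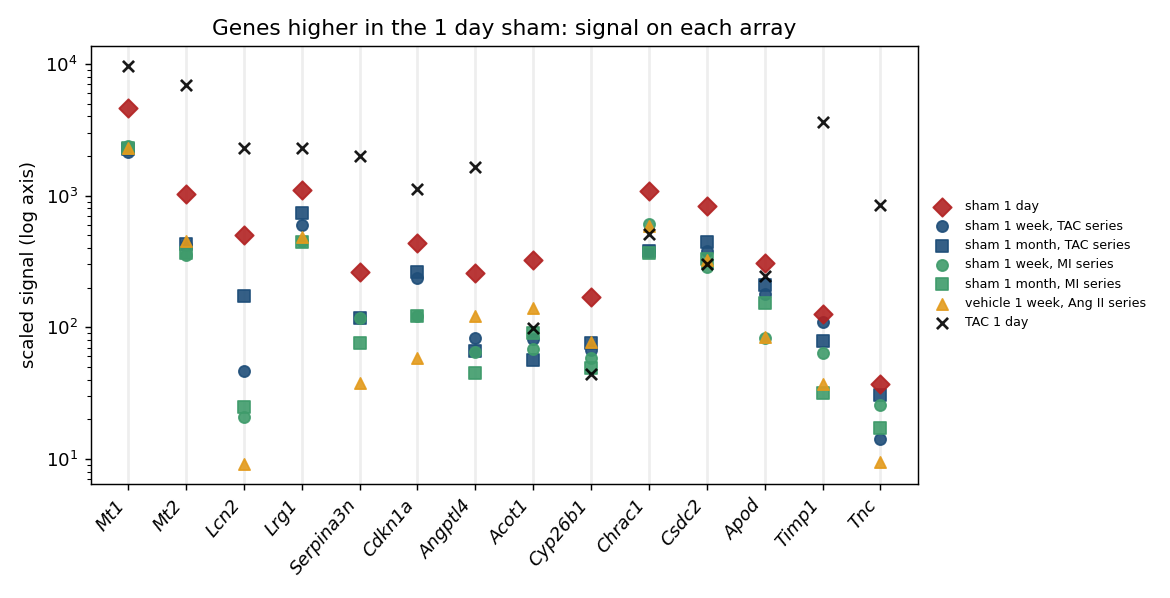
Scaled signal on a log axis for 14 genes counted higher in the 1 day sham, with 1 point for each of the 6 control arrays and for TAC at 1 day. The red diamonds of the 1 day sham lie above all 5 later controls in every gene shown, and TAC at 1 day lies above the 1 day sham for Mt1, Mt2, Lcn2, Lrg1, Serpina3n, Cdkn1a, Angptl4, Timp1 and Tnc.

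On the lower side the interferon-induced genes stood together. Of 40 measured members, 14 were counted lower (35%, against 2.43% of all genes) and none higher, 30 lay below the later range (75%, against 21.4%), and the median log2 difference was -0.68. The 14 were Zbp1, Iigp1, Igtp, Irgm2, Gbp7, Irgm1, Gbp3, Ifit3, Tap1, H2-K1, Psmb9, Usp18, Gbp2 and H2-D1. None passed limma's adjusted threshold, and 24 of the 40 had an unadjusted p under 0.05.

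Iigp1, an immunity-related GTPase that attacks the vacuoles of intracellular pathogens, read 300.1 in the 1 day sham. It read 2363 and 1193 in the TAC shams at 1 week and 1 month, 3011 and 1410 in the MI shams, and 577 in the Ang II series control. Both shams at 1 week were above both shams at 1 month, the Ang II series control was the lowest of the 5, and the 1 day sham was lower still, with a log2 difference of -2.29 (SE 0.63, adjusted p = 0.248). A second Iigp1 probe set gave -2.10.

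Igtp, of the same GTPase family, read 169 in the 1 day sham against 1149 and 625.2 in the TAC shams, 1627 and 733 in the MI shams and 228 in the Ang II series control. The order of the arrays was the same as for Iigp1, with the MI sham at 1 week highest, and the log2 difference was -2.09 (SE 0.73, adjusted p = 0.316). Irgm2, a regulator of these GTPases, read 72.8 against 427 and 179 in the TAC shams, 584 and 264 in the MI shams and 86.6 in the Ang II series control. Igtp and Irgm2 are the pair whose promoters share the site arrangement shown above. Irgm1 read 117 against 170 to 510.0.

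The guanylate-binding proteins, GTPases that coat pathogen membranes, followed. Gbp3 read 70.8 in the 1 day sham and 144 to 268 later, with the Ang II series control at 180, in the middle of the range. Gbp7 read 133 against 205.5 to 625.0, Gbp2 129 against 152 to 432, and Gbp2b, which is on no list, 112 against 174 to 573. Ifit3, an RNA-binding antiviral protein, read 55.4 against 113 to 175, where the Ang II series control at 130 was also inside the range (log2 difference -1.36, SE 0.24, adjusted p = 0.0862).

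Antigen processing genes were lower as well. Psmb9, an immunoproteasome subunit, read 87.2 against 137 to 262, and Tap1, the peptide transporter, read 37.5 against 44.6 to 142. The class I heavy chains H2-K1 and H2-D1 read 970.3 and 1008, against 1133 to 2879 and 1302 to 2448. Their partner B2m read 3667 against 3881 to 6008 and was below the range without reaching 2-fold. Irf1, the transcription factor at the head of the interferon-gamma response, read 239 against 315 to 363.

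MHC class II genes had 3 of 8 measured members counted lower (37.5%, against 2.43% of all genes), none higher, and a median of -0.93. The count was 0 without the TAC sham at 1 week, 1 without the TAC sham at 1 month, without the MI sham at 1 week or with the signals as deposited, and 6 without the Ang II series control. Cd74, the invariant chain, read 419 in the 1 day sham. It read 1423 and 988 in the TAC shams, 1116 and 809 in the MI shams and 537 in the Ang II series control. The Ang II series control was again nearest, and the log2 difference was -1.15 (SE 0.37, adjusted p = 0.289). H2-Aa read 512 and H2-Eb1 293, against 563 and 297 in the Ang II series control and 964 to 1579 and 547 to 898 in the shams. These 2 sat at the 2-fold limit and were counted in 8 and 9 of 15 alternatives. Ciita, the class II transactivator, read 17.5 against 19.9 to 33.8.

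Values against the Ang II series control were smaller for both families. Against that array alone the interferon-induced median was -0.26 with 3 genes 2-fold lower and 1 higher, and the class II median was -0.09 with 1 gene lower. Without it the medians were -0.83 and -1.19, with 16 and 6 genes counted. Among all 46 bright lower genes it was the nearest later control for 30 (65.2%, against 32.6% of all bright genes). This is also the array that shared the higher dap ratio with the 1 day sham. Over all genes, 357 (3.07%) were 2-fold lower and 173 (1.49%) 2-fold higher in the 1 day sham than in that control.

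**Figure D3:**
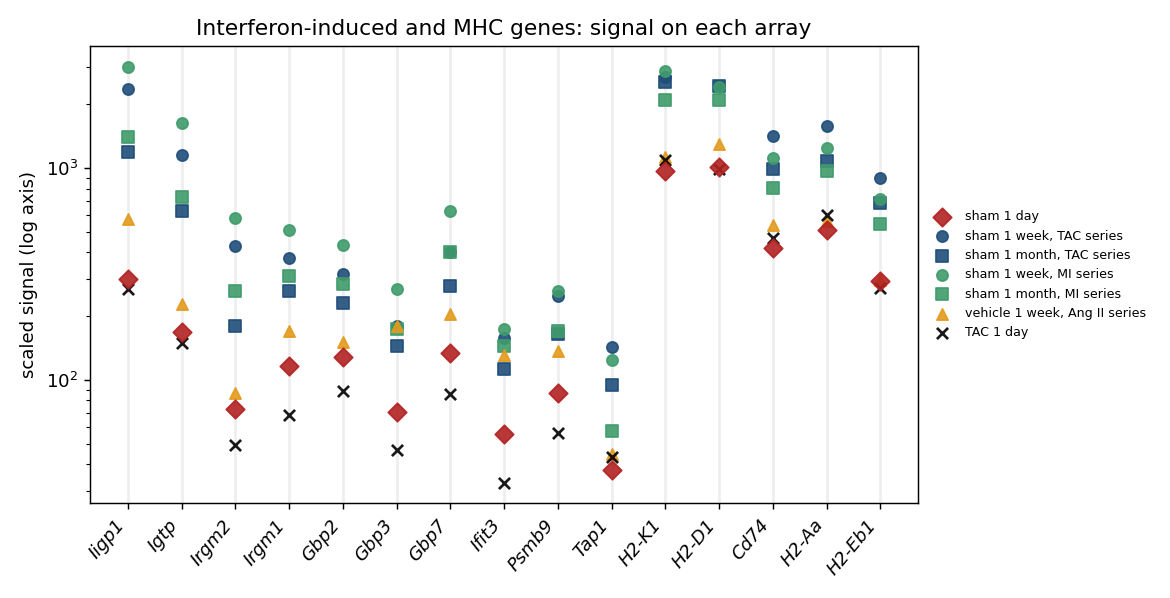
Scaled signal on a log axis for 12 interferon-induced genes and 3 class II genes, all counted lower in the 1 day sham. Each gene has 1 point for each of the 6 control arrays and for TAC at 1 day. The 1 day sham is below all 5 later controls in each gene, which the counting rule requires. The orange triangles of the Ang II series control are the nearest later value in most of them, and TAC at 1 day lies close to or below the 1 day sham.

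Immune cell markers were read beside these families. Of 34 measured monocyte and macrophage markers, 2 were counted lower (5.88%, against 2.43% of all genes), Trem2 and Folr2, and none higher. Their median was -0.31, or 0.12 against the Ang II series control. Their summed signal was 6730 in the 1 day sham and 6011 to 10440 later. Folr2, a folate receptor of resident macrophages, read 44.5 against 72.8 to 120, while Csf1r, the defining receptor of the lineage, read 1016 inside the range of 988 to 1398. Trem2 was at the floor in the 1 day sham, and a dimmer Trem2 probe set read 23.6 within 4.54 to 32.5 (log2 difference 0.87). In whole ventricle, fewer cells of a type and less RNA per cell cannot be told apart.

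Only 2 of 19 lymphocyte markers passed the filter, so T cell and B cell content could not be followed. None of 8 measured neutrophil markers was counted, with a summed signal of 236 within 139 to 458, and S100a8, a granule protein of neutrophils, read 91.2 within 22.3 to 171. Of 5 platelet markers Gp1bb and Ppbp were counted lower (40%, against 2.43% of all genes). Of 5 mesothelial markers Upk3b was counted lower (20%), at 7.64 against 9.28 in the Ang II series control and 29.9 to 54.8 in the shams. The summed mesothelial signal was 120 against 129 to 181. Of the liver and plasma list 1 gene was measured, Apoa2, which was dim and counted higher at 29.3 against 4.54 to 23.6. The part of these markers in the results was not tested.

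Chemokines had 5 of 18 measured members counted lower (27.8%, against 2.43% of all genes) and none higher, with a median of -0.42, or 0.02 against the Ang II series control alone. Ccl12, a monocyte attractant, read 15.7 in the 1 day sham against 105 and 64.5 in the TAC shams, 128 and 95.6 in the MI shams and 41.9 in the Ang II series control. Its log2 difference was -2.37 (SE 0.49, adjusted p = 0.142). Cxcl9, an interferon-gamma induced attractant of T cells, was at the floor in the 1 day sham and read 19.2 to 55.5 later, and Ccl4 was at the floor against 28.5 to 43.0. Ccl5 and Ppbp were the other 2. Ccl2 read 50.2, inside the later range of 8.97 to 50.8.

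Immediate early genes held no member counted higher. The median of the 33 measured was -0.31. Egr2 and Nr4a3 were counted lower (6.06%, against 2.43% of all genes), both at the floor in the 1 day sham. Their probe sets disagreed, since those below the filter read higher in the 1 day sham, at 24.6 against 7.17 to 19.3 and 13.6 against 4.54 to 7.72 for Nr4a3. The second Egr2 probe set gave a log2 difference of 0.81. Fos read 39.2 within 35.9 to 234, Egr1 read 141 just under the later range of 157 to 503, and Atf3 read 54.5 under 66.4 to 101. Heat shock genes were variable among the later controls. Hspa1b, an inducible Hsp70, read 124 against 309 and 169 in the TAC shams, 1976 and 2562 in the MI shams and 356 in the Ang II series control. The MI shams stood far above the rest, and Hspa1a, a near-identical copy whose probes may detect both, read 87.0 against 101 to 573.

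Cell cycle genes had 4 of 31 measured members counted lower (12.9%, against 2.43% of all genes) and none higher, with a median of -0.38. Top2a, the mitotic topoisomerase, read 15.4 against 32.8 to 60.3, Cdk1 was at the floor against 11.3 to 41.0, Prc1 was at the floor against 9.78 to 43.6, and Ccne2 read 9.09 against 17.9 to 51.8. All 4 were dim on every control array.

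Among single genes of the lower side, Dyrk1b read 4.74 in the 1 day sham against 94.3 and 77.0 in the TAC shams, 72.1 and 78.5 in the MI shams and 50.9 in the Ang II series control. The log2 difference was -3.95 (SE 0.36, adjusted p = 0.00407 by limma). It was represented by 1 probe set, read 51.3 in TAC at 1 day, and the low reading is that of a single array close to the floor. Iqsec3, Sdk2, Cdkl1, Smpdl3b, Ifi44l, Eva1c, Prss44 and Adat3 had the same form, at 4.54 to 4.94 in the 1 day sham with log2 differences of -2.58 to -2.95. A second Sdk2 probe set, also above the filter, read 27.7 within 13.4 to 43.2 (log2 difference 0.03), so its probe sets disagreed. Sele, the endothelial selectin, read 5.23 against 12.3 to 33.6. BC023105, an uncharacterised transcript, read 18.7 against 379 and 142 in the TAC shams, 521 and 193 in the MI shams and 44.2 in the Ang II series control, the same order of arrays as Igtp.

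Several other lists held no counted gene. None was counted among 32 ion channel and calcium handling genes, 23 fibroblast markers, 39 ribosome biogenesis genes, 24 antioxidant genes, 20 genes of the integrated stress response, 32 angiogenic genes, 15 coagulation genes, 22 adrenergic genes, 8 polyamine genes or 31 genes of protein breakdown, and their medians lay between -0.08 and 0.21. Shifts under 2-fold were present in some of them. Of the 31 genes of protein breakdown 45.2% lay above the later range, and of the 32 angiogenic genes 40.6%, against 23.7% of all genes. Among ion channel genes Kcnv2 was nearest to the limit, at 34.1 against 54.5 to 96.7 (log2 difference -0.98). Kcnk3 was on the higher side at 0.88, with 2 further probe sets at -0.01 and 0.50, and the fibroblast marker Htra3 was at 0.73. Dimmer Htra3 probe sets gave 0.645 and -1.88, the last at 7.26 against 20.9 to 33.8, so its probe sets disagreed. Of 30 fetal and mechanical stress genes 1 was counted (3.33%, against 2.43% of all genes counted lower), Nes, which was lower at 37.5 against 51.7 to 109. Nppb, the natriuretic peptide gene, read 5981 inside a later range of 4701 to 7284. Among 37 glucose metabolism genes the dim transporter Slc2a3 was counted lower (2.7%, against 2.43% of all genes). Among 26 IL-1, TNF and NF-kB genes Ptgs2 was counted higher (3.85%, against 0.482%) and Sele lower (3.85%, against 2.43%).

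Several circadian clock genes split the controls by series. Arntl, the positive arm of the clock, read 108 in the 1 day sham, 116 and 112 in the TAC shams at 1 week and 1 month, 18.0 and 20.3 in the MI shams and 9.28 in the Ang II series control. The 3 TAC series controls were alike and the other 3 far lower, so Arntl was not counted. A second Arntl probe set did not show this order, at 17.6 in the 1 day sham and 20.9 to 45.3 in all later controls (log2 difference -0.83). Per2, a repressor of the clock, had the opposite order, at 78.8 in the 1 day sham, 90.4 and 71.8 in the TAC shams, 264 and 267 in the MI shams and 205 in the Ang II series control. Per3, Cry1, Hlf and Nr1d2 split the controls as Per2 did. Other Per3 probe sets above the filter had log2 differences of -0.37, 0.36 and 0.26, against -0.85 for the one used.

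Of 21 measured clock genes 1 was counted lower (4.76%, against 2.43% of all genes), the dim Rorb. Dbp, an output gene, was an exception to the split by series, with 1140 in the 1 day sham above both TAC shams at 785 and 468. Per1 was another, at 85.3 in the 1 day sham, 101 to 106 in the TAC and MI shams and 193 in the Ang II series control. Ciart read 58.5, below all later controls at 85.4 to 176. The hour of harvest is not stated in the labels or the study's text. Series, time of harvest and kind of surgery cannot be told apart for these genes.

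**Figure D4:**
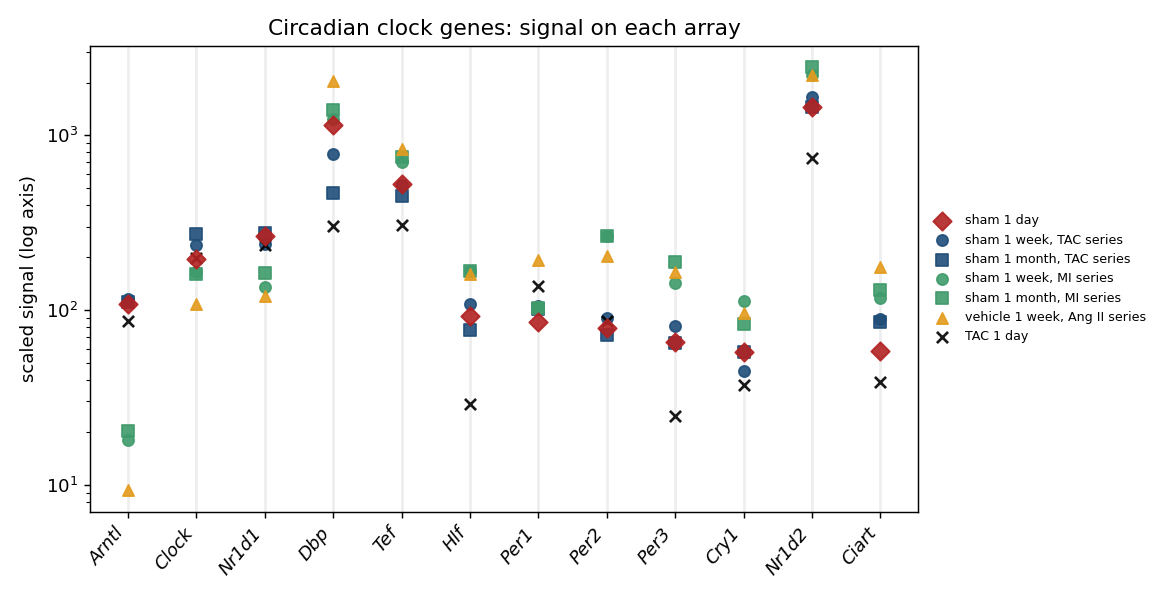
Scaled signal on a log axis for 12 circadian clock genes, with 1 point for each of the 6 control arrays and for TAC at 1 day. For Arntl the 1 day sham at 108 lies with the TAC shams at 116 and 112, and for Per2 and Per3 it lies with them below the MI and Ang II series controls.

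The array of TAC at 1 day gave a second look at the same day with no array in common, since it was compared with the 5 later procedure arrays (those of the 3 procedures at 1 week, and of TAC and MI at 1 month). By the same rule TAC at 1 day had 342 genes higher (2.94%) and 853 lower (7.34%), and limma called 325 higher (2.8%) and 643 lower (5.53%) at an adjusted p under 0.05. The split moved with the scaling. With the signals as deposited the rule gave 219 higher and 1238 lower and limma 138 and 770, and after quantile normalization the rule gave 412 and 704 and limma 292 and 479. The limma total of 968 was 391 without TAC at 1 week, 461 without TAC at 1 month, 330 without MI at 1 month and 1518 without Ang II. Of the 56 genes higher in the 1 day sham, 18 were also higher in TAC at 1 day (32.1%) and 2 were lower, Lingo3 and Gsdmcl2. Of the 282 lower genes, 69 were lower there as well (24.5%) and 6 were higher. The shared genes made up 18 of the 342 and 69 of the 853.

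Bright and dim genes were also read apart. Of the 16 bright higher genes 9 were higher in TAC at 1 day (56.2%, against 2.3% of all bright genes), and of the 46 bright lower genes 22 were lower (47.8%, against 4.74%) and none was higher. Among the dim counted genes the shares were 22.5% of 40 and 19.9% of 236, against 2.94% and 7.34% of all genes tested. Shares over all dim genes were not computed. They are above 2.94% and 7.34%, since those of all bright genes were below. The difference between bright and dim genes was not tested.

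Several of the shared higher genes were higher in TAC than in the sham at 1 day. Mt2 read 6883 in TAC at 1 day, against 491 to 1127 in the later procedure arrays and 1030 in the 1 day sham. Lcn2 read 2304 against 18.3 to 210.0, and Lrg1 2302 against 340 to 525. The 1 day sham values of Lcn2 and Lrg1 lay between those of the later arrays and TAC at 1 day.

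Angptl4 read 1661 in TAC at 1 day against 49.6 to 175, Serpina3n 2012 against 56.2 to 808 and Timp1 3603 against 57.2 to 815. Acot1 differed, at 98.1 in TAC at 1 day within a later range of 15.8 to 127. Cyp26b1 and Csdc2 were also inside the later procedure range, at 44.5 and 303. In the metal and iron list 4 of 16 genes were counted higher in TAC at 1 day (25%), and in the acute phase list 3 of 10 (30%), against 2.94% of all genes.

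The interferon-induced genes were lower in TAC at 1 day too, with 19 of 40 counted lower (47.5%, against 7.34% of all genes), none higher and a median of -0.98. Iigp1 read 269 there, against 362 to 3087 in the later procedure arrays, and Igtp read 149 against 152 to 1408. Both values were close to those of the 1 day sham, 300.1 and 169. Class II genes had 3 of 8 counted lower (37.5%) with a median of -0.83. The dap ratio of TAC at 1 day was 0.611, against 0.497 in the Ang II array and 0.222 to 0.384 in the other later procedure arrays, and its part in these values was not tested. Cell cycle genes had 13 of 31 lower (41.9%, against 7.34% of all genes).

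Other lists had different counts in the TAC and sham arrays of day 1. Of 18 chemokines 5 were counted higher in TAC at 1 day (27.8%, against 2.94% of all genes), Ccl12 among them at 306 against 60.4 to 204, where the 1 day sham read 15.7. Ribosome biogenesis genes had 12 of 39 higher (30.8%), immediate early genes 9 of 33 (27.3%), fetal genes 9 of 30 (30%) and neutrophil markers 3 of 8 (37.5%), and in each of these 4 lists no gene was counted higher in the 1 day sham. Ion channel genes had 7 of 32 lower (21.9%) and fibroblast markers 7 of 23 (30.4%), against 7.34% of all genes, where the 1 day sham had none. In a limma fit of the difference between the TAC effect and the sham effect at 1 day, 272 genes (2.34%) had an adjusted p under 0.05. When the difference was taken within the 6 pairs of procedure and control of the same series and time, a fit chosen after seeing the data, 140 did, 107 of them shared with the 272. That fit also left out the intensity trend, so the counts differ by both the pairing and the trend. Whether these lists differed as groups was not tested.

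**Figure D5:**
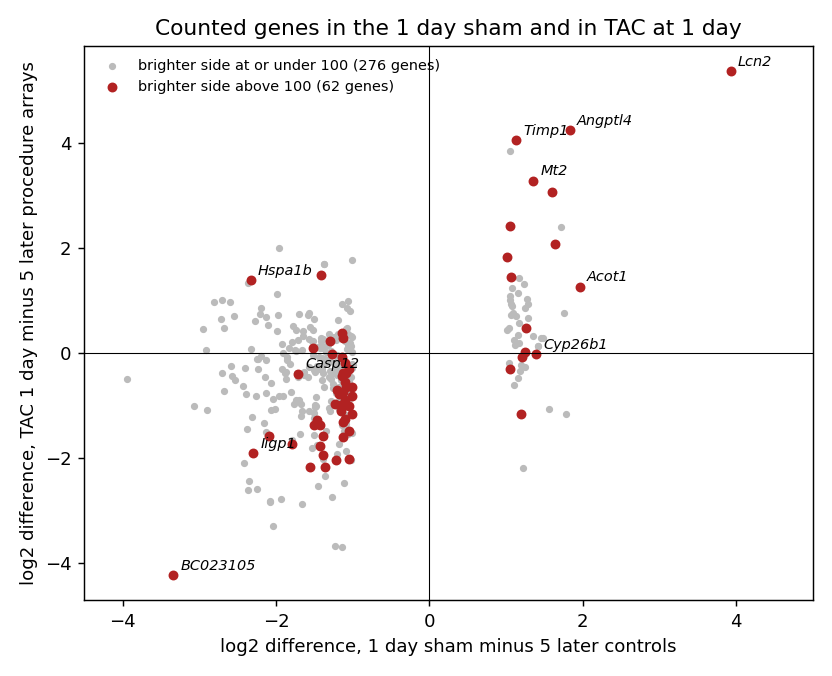
Log2 difference of TAC at 1 day from the 5 later procedure arrays (y axis) against the log2 difference of the 1 day sham from the 5 later controls (x axis) for the 338 counted genes, with the 62 whose brighter side is above a signal of 100 in red. Lcn2, Angptl4, Mt2 and Timp1 lie at upper right and BC023105 and Iigp1 at lower left, while Hspa1b, lower in the sham, lies above 0 on the y axis.

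A limma fit over all 12 arrays, with procedure or control as a covariate, compared the 2 arrays of day 1 with the 10 later ones. It called 226 genes higher (1.94%) and 392 lower (3.37%) at an adjusted p under 0.05. The 1 day sham is 1 of the 2 arrays, so this is not independent of the counts above. Of the 56 higher genes 6 were called, Mt1, Mt2, Lrg1, Angptl4, Lcn2 and Smim5, and of the 282 lower genes 71 were, with none called in the opposite direction. Mt1 had a log2 difference of 1.43 (adjusted p = 0.00104), Lrg1 of 1.74 (adjusted p = 0.00668) and Lcn2 of 4.65 (adjusted p = 0.0187).

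The later controls were compared by time as well. The 3 controls at 1 week against the 2 at 1 month gave 0 genes at an adjusted p under 0.05 by limma and 291 (2.5%) at an unadjusted p under 0.05. The interferon-induced median was 0.11 higher at 1 week on the log2 scale, and that of the acute phase list 0.40 higher. Of the 56 genes higher in the 1 day sham, 36 were higher at 1 week than at 1 month (64.3%, against 50.1% of all genes), and of the 282 lower genes 150 were lower at 1 week (53.2%, against 49.7%).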

How the data were processed

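Left ventricular RNA (5 µg per array, biotin-labelled, per the labels) was measured on 12 one-colour Affymetrix arrays, 1 per group. The deposited values are intensity, a linear signal per probe set, made by the authors with GCOS per the submitters' processing notes; no version, algorithm or scaling is given in the sources used here. Signals were deposited as whole numbers on 11 arrays, and with decimals on TAC at 1 day.

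Each array was scaled to a common 2% trimmed mean, floored at the 20th percentile and taken to log2. Of 45101 probe sets, 34958 had 1 gene symbol in GEO's platform annotation, 932 several and 9211 none listed. The brightest probe set stood for a gene, and genes under the 40th percentile of mean signal were left out. Tests used limma 3.58.1 (R 4.3.3) with an intensity trend and Benjamini-Hochberg adjustment, and were tested on simulated data. The fit within pairs of series and time was run without the trend. P-values measure the spread between arrays, which may be technical. The number of arrays limits the precision.

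Members and gene lists were chosen with earlier results of these data known. Genes were named as the 20 largest higher and 15 largest lower differences with the brighter side above the median signal of all probe sets, up to 5 counted genes per list or its largest difference, and every measured acute phase, metallothionein and clock gene. Others were named after their values were seen. Alternatives changed the scaling, floor, filter, probe set rule, trend, fold limit and controls used.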

Additional observations from a re-analysis of the deposited data

Results flagged for a closer look

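Of the 130 genes named by rule, 4 (3.08%) had 1 of the 5 later controls apart from the other 4 by Dixon's test, which flags about 1 group in 20 by chance. Per1 read 193 in the Ang II series control, with the next at 106. Slc11a2, a divalent metal transporter, read 57.0 in the MI sham at 1 week, with the next at 80.9. Pgf, a placental growth factor, read 11.9 in the TAC sham at 1 month, with the next at 35.9. Nr4a3 read 48.6 in the TAC sham at 1 week, with the next at 32.5.

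The effect of day 1 differed between TAC and sham for 14 of the named genes in a limma fit with an interaction term, where the value is the TAC log2 difference minus the sham log2 difference. Many of these genes were named for an extreme value in the single 1 day sham array, so their difference is partly fixed by that choice and is a description. When the difference was taken within pairs of series and time and without an intensity trend, 10 of the 14 passed. It was larger in TAC for Mt2, by 1.92 (adjusted p = 0.0297), and for the zinc importer Slc39a14, by 1.04 (adjusted p = 0.0480). Genes expressed at a higher level in the 1 day sham than later and at a lower level in TAC at 1 day were the potassium channel Kcnk3, with a value of -2.03 (adjusted p = 0.00761), and the serine protease Htra3, with -1.97 (adjusted p = 0.00420). Both are read from the brightest probe set of the gene, and a dim Htra3 probe set was lower in the 1 day sham than later. The other 10 were dim in the 1 day sham and most of them were at or near the floor. They were the chemokines Ccl12 with a value of 3.71 and Ccl4 with 2.96, the endothelial selectin Sele with 3.96, and Dyrk1b with a value of 3.46, Sdk2 with 3.37, Prss44 with 3.40, Clcf1 with 3.70, Iqsec3 with 3.78, Smpdl3b with 3.17 and Eva1c with 3.57.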

How the results depend on the processing

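The count of 338 genes outside the later range was 307 with signals as deposited, 294 after quantile normalization and 355 to 390 on leaving out each later control in turn. It moved to 190 with the floor at the 40th percentile, 1158 with no filter on dim genes, 62 with the brighter side above 100 (chosen after seeing the data), 104 at a 3-fold and 1146 at a 1.5-fold limit, 576 against the TAC shams alone and 530 against the Ang II series control alone. The limma count of 3 was 2 to 62 on leaving out each later control, 1 with the higher floor, 139 with no filter, 1 with the mean of all probe sets, 204 against the TAC shams, 0 against the controls at 1 week and 58 against those at 1 month. The TAC at 1 day limma count of 968 was 330 to 1518 on leaving out each later procedure array, 532 with the mean of probe sets and 641 without the intensity trend, and its rule count of 1195 was 2319 with no filter. The 12-array count of 618 was 187 with signals as deposited, 266 with no filter, 291 with the mean of probe sets and 299 without the trend. The count of 0 between 1 week and 1 month was 0 in every alternative run. Of 69 counted named genes, 62 to 69 kept their call in the scaling, lower floor and filter alternatives, 43 with the higher floor and 45 against the Ang II series control alone. The direction reversed for Clcf1 after quantile normalization (0.089) and for Ptgs2 with the higher floor (-0.043), and the cause was not tested. The higher floor, the stricter limits and the filter change which dim genes can be counted. The 272 genes of the TAC-minus-sham difference were 140 with the pairs of series and time as a block and no intensity trend. The pairing was taken from the titles. No paired analysis was possible because each group holds 1 array for the 1 day sham against the later controls, and the labels give no replicate numbers.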

Other observations

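Several bright transcripts that belong to no list were lower in the 1 day sham and were singled out after their values were seen. Among them were 3 long non-coding RNAs. Malat1, which is retained in nuclear speckles, read 413 in the 1 day sham against 1663 and 1389 in the TAC shams, 1292 and 1223 in the MI shams and 626 in the Ang II series control. Tug1 read 233 against 320 to 538 and Meg3 read 125 against 212 to 334, with the Ang II series control lowest of the later 5 for all 3. In TAC at 1 day Malat1 read 1403, inside the later procedure range of 629 to 1956, while Meg3 at 163 was below its range of 223 to 674. The splicing factor gene Srsf2 read 525 against 897 to 1352.

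The transcription factor gene Klf12 read 100.4 in the 1 day sham against 181 to 374 later and 49.3 in TAC at 1 day, and the mitotic brake Wee1 read 64.5 against 101 to 226 and 63.6 in TAC at 1 day. Aspn, a small leucine-rich proteoglycan of the matrix, read 163 against 280 to 407, and 166 in TAC at 1 day. Casp12, an inflammatory caspase, read 55.5 against 141 to 239, and 164 in TAC at 1 day, inside the later procedure range.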
